A study of Mus musculus with 24 samples.

Results

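The 10 genes described here are encoded by the mitochondrial DNA of the mouse: mt-Nd1, mt-Nd2, mt-Nd4 and mt-Nd5, subunits of respiratory complex I; mt-Cytb, the cytochrome b of complex III; mt-Co1, mt-Co2 and mt-Co3, the catalytic core subunits of complex IV; mt-Atp6, a membrane subunit of ATP synthase; and mt-Rnr2, the large mitochondrial ribosomal RNA. They were taken by name from a table of 17111 genes and are described over its 6 groups of genotype and day. They were chosen by their values and their share of each library's total over these groups, so levels and fold changes of the 10 are a description and carry no test.

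Mitochondrial DNA is a small circle present in many copies per cell. Both strands are transcribed by a dedicated polymerase, POLRMT, with the factors TFAM and TFB2M, as long precursors that are cut at the tRNAs lying between the genes, so that the level of each mature RNA also depends on how long it lasts. Every protein it encodes is a subunit of oxidative phosphorylation and works only in a complex with nuclear-encoded partners. Quiescent muscle stem cells hold few mitochondria, and mitochondrial content is known to rise as they activate and differentiate.

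Libraries were made from muscle stem cells, the cells that rebuild muscle after damage, of mouse muscle. There were 6 groups of 4 libraries: WT (L2A-WT, intact Lamp2a) and KO (L2A-Pax7CreER, in which a Cre under the stem cell gene Pax7 acts on Lamp2a, the receptor of chaperone-mediated autophagy), each uninjured (day 0) or 1 or 4 days after intramuscular cardiotoxin (50 µL of 10 µM), a toxin that destroys myofibres. Only KO titles name the Cre, so an effect of Cre cannot be told apart from loss of Lamp2a. Nothing in the labels states whether the libraries within a group stem from different mice, and every p-value below therefore reflects library-to-library spread that may be technical in part or whole. Lamp2, counted over all its splice forms, did not differ between genotypes at any day (limma, adjusted p = 0.523, 0.887 and 0.981 at days 0, 1 and 4), which does not check the loss of the Lamp2a form.

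Total counts ran from 11.58 to 22.47 M per library, and the lowest totals for a group were those of WT at day 4 (11.99 to 14.08 M). Values are the authors' normalised signal. The scaling in it left column totals unequal: 1036000 to 1096000 in WT and 932400 to 1058000 in KO at day 0, 872300 to 917200 and 1066000 to 1124000 at day 1, and 772600 to 859100 and 1128000 to 1345000 at day 4. Column totals were thus higher in every KO than in every WT library at days 1 and 4, the days at which the mitochondrial RNAs were also higher in KO. The part of this scaling in the genotype differences is shown by values rescaled to an equal library total (CPM). These are given for medians and list counts and only for a few single genes. Genotype differences of single genes otherwise include the unequal column totals.

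Reads of several of the 10 genes can also fall on nuclear copies of mitochondrial DNA, and these sequences decide how the values of mt-Co3, mt-Co1 and mt-Nd3 can be read. By the transcripts of GENCODE M21 (GRCm38, another build than the mm39 of the files, so no coordinates are given), Gm28437, Gm29216, Gm28661 and Gm28438 on chromosome 1 are copies of mt-Co3, mt-Co1, mt-Co2 and mt-Nd3. The 3′ ends of mt-Co3 and Gm28437 (bases counted from 1 at the 5′ end of each transcript) are shown because they are the same letter for letter over the whole copy, 783 of the 784 bases of mt-Co3; the capital marks the last base of mt-Co3, which the copy lacks and which polyadenylation completes to a stop codon.
mt-Co3, bases 695 to 784: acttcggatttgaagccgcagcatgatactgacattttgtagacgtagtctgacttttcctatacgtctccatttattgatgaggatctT
Gm28437, bases 695 to 783: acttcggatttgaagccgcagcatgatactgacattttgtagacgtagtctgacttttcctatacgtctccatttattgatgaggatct

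The 5′ ends of the aligned parts of the other pairs are shown because a single base separates each copy from its gene within the aligned part. Gm29216 aligned to bases 1063 to 1545 of mt-Co1 at 99.793% identity over 483 bases, with the difference A1066T, counted from the 5′ end of mt-Co1 and marked by the capital.
mt-Co1, bases 1063 to 1123: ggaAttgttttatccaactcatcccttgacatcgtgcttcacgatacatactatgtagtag
Gm29216, bases 10 to 70: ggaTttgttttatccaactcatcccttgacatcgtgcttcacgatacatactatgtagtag
Gm28438 aligned to mt-Nd3 at 99.71% identity over 345 bases, with the difference T3C counted from the 5′ end of mt-Nd3.
mt-Nd3, bases 1 to 61: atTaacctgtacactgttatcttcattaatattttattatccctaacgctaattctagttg
Gm28438, bases 1 to 61: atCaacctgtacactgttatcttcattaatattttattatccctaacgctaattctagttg
Gm28661 held all 681 of its bases in mt-Co2 without a mismatch. Within the aligned parts, a read away from these single bases fits gene and copy equally. Reads of mt-Co1 before base 1063 have no counterpart in Gm29216, so only a part of the mt-Co1 value is open to this. The values of mt-Co3, mt-Co2 and mt-Nd3, that part of mt-Co1, and the values of the copies are thus uncertain on their own. Sums of gene and copy are given where the genes are described. The identical copies of mt-Nd4, mt-Atp6 and mt-Nd4l in that annotation (Gm28439, Gm10925 and Gm10222) are not rows of the table. Gm13340 and Gm13341 on chromosome 2 are less similar copies of mt-Co1 (97.605% identity) and mt-Co2 (95.906%). Their mean values over the 24 libraries were 0.866 and 1.19, and they are not among the 4 copies counted below.

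The 10 genes held a small part of each library at day 1 and a large part at day 4. In WT, they held 6.88, 8.21, 7.32 and 6.21% of the column total at day 0, 3.40, 2.84, 2.06 and 2.76% at day 1, and 28.25, 28.8, 25.8 and 27.04% at day 4. In KO, they held 7.37, 6.62, 6.32 and 11.6% at day 0, 5.44, 4.38, 3.53 and 5.70% at day 1, and 43.5, 40.02, 40.06 and 39.99% at day 4. Every day 1 library was below every day 0 library of both genotypes, and every day 4 library was above both.

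The genotypes overlapped at day 0, where KO replicate 4 stood above all other uninjured libraries, and did not overlap at days 1 and 4. At day 0 the mean share was 7.16 ± 0.838% (SD, n = 4 here and below) for WT and 7.98 ± 2.45% for KO. It was 2.77 ± 0.55 and 4.76 ± 1.00% at day 1, and 27.5 ± 1.33 and 40.9 ± 1.73% at day 4. With the 4 nuclear copies added, the shares at day 4 were 34.1 ± 1.87% in WT and 51.2 ± 2.22% in KO. With all 15 mitochondrially encoded genes of the table and the copies, they were 36.5 ± 2.13 and 54.8 ± 2.77%. These sums leave less of a KO library at day 4 for nuclear transcripts than of a WT library.

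**Figure D1:**
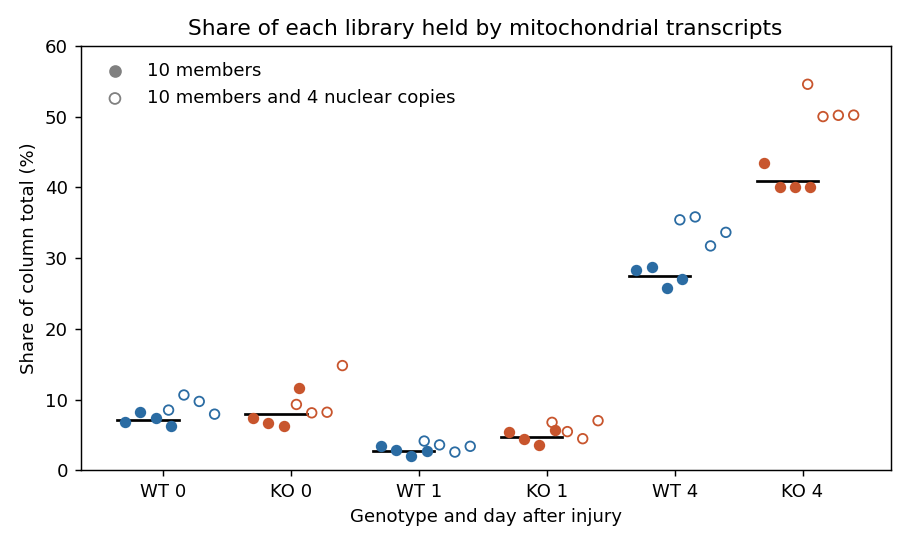
Share of each library's column total (%, linear axis) held by the 10 genes (filled points, black line the mean of 4 libraries) and by the 10 genes with the 4 nuclear copies (open points), by genotype (blue WT, red KO) and day. The filled points lie between 2.06 and 5.70% at day 1 and between 25.8 and 43.5% at day 4, with KO above WT at both days.

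In bulk libraries, fewer cells of a type and less RNA per cell cannot be told apart, and markers of other cells changed over the same days. The summed level of 15 macrophage markers was 18.28 to 112.8 in WT and 22 to 54.93 in KO at day 0, 8.041 to 32.08 and 15.72 to 28.19 at day 1, and 1522 to 2036 and 1288 to 1433 at day 4, and 15 of 15 were higher at day 4 than at day 1 in each genotype. The sum of 12 muscle stem cell markers was 2759 to 3713 and 3206 to 3609 at day 0, 4779 to 6923 and 5670 to 7589 at day 1, and 1252 to 1470 and 1307 to 1463 at day 4. The sum of the 14 myofibre markers in the table was lower in KO (38.25 to 100) than in WT (253.4 to 366.8) at day 1 and overlapped at day 4 (725 to 1149 against 1041 to 1500). The macrophage sum was thus lower in every KO than in every WT library at day 4, though its member Fcgr3 was higher without overlap (40.03 against 20.47). The muscle stem cell sum overlapped between genotypes at all 3 days, but its markers moved in different ways. The change of the genotype difference from day 0 to day 1 passed the limma test as negative for Chodl (-2.86), Pax7 (-1.59), Cd34 (-1.54), Calcr (-1.70) and Cdh15 (-1.29). It passed as positive for Sdc4 (1.30), Vcam1 (0.77) and Notch3 (1.21). Calcr was also lower in KO at day 4 (-1.72 ± 0.37, limma, adjusted p = 0.0159). Of the macrophage markers, 0 of 15 passed the limma test between genotypes at any day. Of all genes tested, 9.75% passed at day 0, 7.12% were higher in KO at day 1, and 0.53% were higher and 0.524% lower at day 4. The 0 of 15 at day 4 is near those shares. From day 1 to day 4, 27.8% of all genes tested were called higher in WT and 26.2% in KO. The sum of 9 fibro-adipogenic markers ran from 295.4 to 2665 and was higher in KO (1669 to 2003) than in WT (640.0 to 1037) at day 0. That of 6 endothelial markers in the table ran from 5.92 to 265.4 and was lower in KO (14.5 to 22.19) than in WT (23.4 to 40.41) at day 1, and the erythroid marker in the table stayed at or below 1.72. The part of these cells in the mitochondrial values was not tested.

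After 1 day of injury, the 10 RNAs were lower in WT and mixed in KO. Fold changes were taken on the log2(value + 1) scale, each with a standard error from a limma model over all 24 libraries. In WT the median over the 10 was -1.66 against -0.01 over the 16985 genes tested, from -0.69 ± 0.18 for mt-Nd1 to -2.05 ± 0.17 for mt-Atp6 (-0.59 under quantile normalization, which gives the top ranks of every library the same values). All 10 passed the threshold (adjusted p under 0.05) as lower, where 24.9% of all genes tested did, and all 10 had no overlap of libraries, where 23.7% of all genes were lower in that way. In KO the median was -0.59, with 6 lower and 1 higher, where 21.5% and 24.2% of all genes tested were called, and 3 of 10 (mt-Cytb, mt-Atp6 and mt-Rnr2) were lower without overlap, where 19.3% of all genes were. These shares describe the genes, since the comparison entered the choice of the 10.

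From day 1 to day 4 all 10 RNAs were higher in both genotypes in the deposited values, and mt-Atp6 in KO turned to -0.68 under quantile normalization. The median was 3.03 in WT and 3.13 in KO, against 0.22 and 0.18 over all genes, with 10 of 10 called higher in each, where 27.8% and 26.2% of all genes tested were, and 10 of 10 higher without overlap, where 34.0% and 26.2% of all genes were. In both genotypes mt-Rnr2 stood highest, at 4.05 ± 0.23 and 4.11 ± 0.23, and mt-Co3 lowest, at 1.71 ± 0.38 and 2.59 ± 0.38. With the reads of its copy Gm28437 added, mt-Co3 came to 2.97 and 3.15, and mt-Nd1 was then lowest, at 2.55 and 2.71.

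Day 4 also stood above the uninjured state. The median was 1.60 in WT, with 9 of 10 called higher (25.7% of all genes tested), and 2.76 in KO, with 10 of 10 (22.3%). Without overlap, 9 of 10 were higher in WT (21.7% of all genes) and 10 of 10 in KO (14.7%). The exception in WT was mt-Co3, at -0.27 ± 0.38, and this value turned to 1.02 when the reads of Gm28437 were added. The rise from day 0 differed in size with the gene: it was 2.50 ± 0.17 and 3.93 ± 0.17 for mt-Nd5 in WT and KO, and 0.97 ± 0.17 and 2.09 ± 0.17 for mt-Atp6 (0.02 and -0.15 under quantile normalization).

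Between genotypes, the 10 RNAs did not separate in uninjured muscle and were higher in KO at days 1 and 4. At day 0 the median difference was -0.06, with 0 of 10 called by limma at an adjusted p under 0.05 (9.75% of all genes tested were), 0 of 10 at an unadjusted p under 0.05, and 0 of 10 by edgeR or DESeq2. At day 1 it was 1.06, with 9 of 10 called higher (7.12% of all genes tested) and 7 of 10 higher without overlap (13.9%). At day 4 it was 1.08, with 9 of 10 called higher (0.53%) and 10 of 10 without overlap (3.84%). The genotype difference changed by a median of 0.06 from day 1 to day 4, with 0 of 10 called (3.97%), also by edgeR, by DESeq2 or at an unadjusted p under 0.05, a median that turned to -0.19 as CPM. It changed by 1.13 from day 0 to day 1, with 8 of 10 called higher (7.48%).

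These genotype differences depend on what the libraries are scaled to. As CPM, the median was 0.76 at day 1 and 0.53 at day 4, and the median over all genes moved to -0.19 and -0.48, so that the 10 genes stood 0.96 and 1.01 above it, against 1.09 and 1.11 in the deposited values. As CPM over genes that are neither mitochondrial nor copies, it was 0.80 and 1.02. Under quantile normalization, the median at day 4 was 0.01, and 0 of 10 were called. The part of the scaling in the difference was otherwise not tested.

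**Figure D2:**
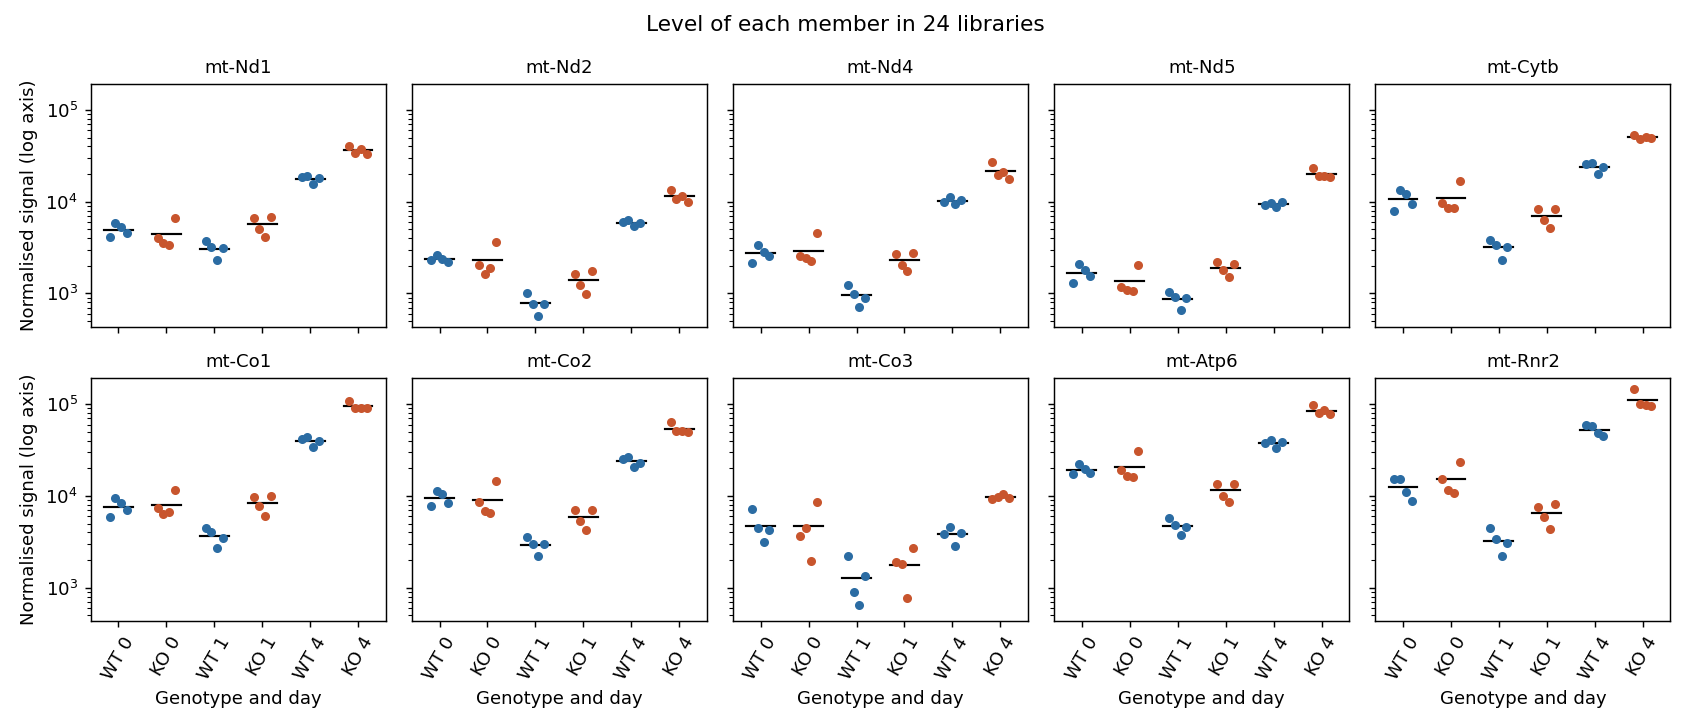
Normalised signal (log axis) of each of the 10 genes in the 24 libraries, by genotype (blue WT, red KO) and day; a line marks the mean of 4 libraries. In all panels the day 4 points of KO lie above those of WT, and in all but mt-Co3 the day 4 points of both genotypes lie above their day 0 points.

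The complex I subunits showed how unlike the fall at day 1 was. mt-Nd1 (ENSMUSG00000064341) had values of 4072, 5913, 5289 and 4560 in WT and 4054, 3522, 3378 and 6646 in KO at day 0, and of 3683, 3237, 2306 and 3121 in WT and 6658, 5009, 4158 and 6859 in KO at day 1. At day 4 it reached 18351, 19253, 15583 and 18121 in WT and 40897, 34148, 37097 and 33241 in KO. In WT the day 1 libraries were below all day 0 libraries, whereas in KO they overlapped them. The change from day 0 to day 1 was -0.69 ± 0.18 in WT and 0.39 ± 0.18 in KO, and the KO and WT libraries were apart at day 1 (difference 0.87 ± 0.18) and day 4 (1.03 ± 0.18).

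mt-Nd5 (ENSMUSG00000064367), a proton-pumping subunit like mt-Nd2 and mt-Nd4, had values of 1284, 2101, 1807 and 1534 in WT and 1187, 1103, 1052 and 2060 in KO at day 0. At day 1 it had 1034, 912.8, 657.3 and 883.3 in WT and 2175, 1808, 1528 and 2106 in KO, so that the genotypes were apart, and KO overlapped its uninjured libraries only through replicate 4 of day 0. At day 4 it had 9224, 9686, 8809 and 9853 in WT and 23094, 18836, 19204 and 18492 in KO. Its change from day 0 to day 1 in KO was 0.54 ± 0.17, and the mt-Nd1 estimate was also positive. The mt-Nd5 change is a description, and the uninjured KO libraries below replicate 4 were also the lowest of that day. Without strand information, reads in the stretch where mt-Nd6 overlaps mt-Nd5 on the other strand cannot be assigned to either gene.

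mt-Nd2 (ENSMUSG00000064345) and mt-Nd4 (ENSMUSG00000064363) were lower in every WT library of day 1 than of day 0. In WT, mt-Nd2 ranged from 2209 to 2642 at day 0, from 569.3 to 1006 at day 1 and from 5460 to 6318 at day 4, and in KO from 1613 to 3639, from 992.4 to 1748 and from 10032 to 13314. Its genotype ranges met at day 1 by a small margin (1006 against 992.4) and were apart at day 4. mt-Nd4 ranged from 2120 to 3409, 704.3 to 1221 and 9534 to 11327 in WT and from 2236 to 4529, 1768 to 2769 and 17797 to 27272 in KO. Its genotype difference at day 1, 1.29 ± 0.20, was the largest point estimate of the 10, with mt-Atp6 at 1.28 ± 0.17.

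mt-Cytb (ENSMUSG00000064370), the only subunit of complex III that mitochondrial DNA encodes, had values of 7876, 13280, 12139 and 9380 in WT and 9772, 8571, 8496 and 16617 in KO at day 0. It had 3867, 3354, 2298 and 3175 in WT and 8280, 6255, 5178 and 8283 in KO at day 1. It was lower at day 1 in both genotypes without overlap, by -1.74 ± 0.19 in WT and -0.60 ± 0.19 in KO. At day 4 it had 25801, 26187, 19906 and 23742 in WT and 53886, 47703, 50207 and 49583 in KO, a difference of 1.08 ± 0.19.

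In complex IV, mt-Co1 (ENSMUSG00000064351), which holds the site where oxygen is reduced, had values of 5918, 9424, 8307 and 7040 in WT and 7451, 6301, 6712 and 11564 in KO at day 0. At day 1 it had 4456, 4006, 2699 and 3443 in WT and 9774, 7690, 6044 and 9930 in KO, so that it was lower in WT (-1.07 ± 0.18) and stood at its day 0 level in KO (0.08 ± 0.18). At day 4 it had 41470, 44245, 34483 and 39728 in WT and 108855, 90632, 90671 and 90939 in KO. It was then 2.39-fold higher in KO than in WT (1.25 ± 0.18 on the log2 scale). As a mean share of the column total, mt-Co1 held 4.87% in WT and 7.91% in KO at that day. With the reads of its copy Gm29216 added, the mt-Co1 sequence had 11700 ± 2150 and 11980 ± 3930 in WT and KO at day 0, 4795 ± 1020 and 11540 ± 2400 at day 1, and 51220 ± 4870 and 129800 ± 16500 at day 4, a difference of 1.34 at that day. mt-Co2 (ENSMUSG00000064354), which takes electrons from cytochrome c, ranged from 7746 to 11277, 2191 to 3594 and 20712 to 26775 in WT and from 6476 to 14643, 4207 to 7109 and 49260 to 63859 in KO over days 0, 1 and 4. Its genotype differences were 1.00 ± 0.20 at day 1 and 1.16 ± 0.20 at day 4, without overlap. With its copy Gm28661 added, mt-Co2 had 25570 ± 2920 in WT and 55120 ± 6920 in KO at day 4, a difference of 1.11.

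mt-Co3 (ENSMUSG00000064358) was the least regular of the 10. Its values were 7159, 4422, 3166 and 4236 in WT and 3675, 4434, 1936 and 8563 in KO at day 0, 2221, 903.6, 641.7 and 1355 and 1883, 1796, 766.6 and 2686 at day 1, and 3892, 4608, 2824 and 3984 and 9334, 9705, 10566 and 9499 at day 4. Its coefficient of variation over 4 libraries reached 60.4% (KO, day 0). The genotypes overlapped at days 0 and 1 and were apart at day 4.

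Most reads of the mt-Co3 sequence were assigned to Gm28437 (ENSMUSG00000101111), the nuclear copy that is identical over its whole length. Gm28437 had values of 13491, 21996, 20753 and 14908 in WT and 15629, 11219, 14493 and 27729 in KO at day 0, 5191, 5413, 3592 and 4360 and 11554, 8615, 7462 and 10700 at day 1, and 47629, 46202, 34293 and 39662 and 102170, 82922, 85903 and 85757 at day 4. mt-Co3 held a mean of 21.7% of the sum of both in WT at day 0 (13.2 to 34.7% over libraries), 20.8% at day 1 and 8.34% at day 4, and 20.7, 15.2 and 9.94% in KO. The share given to mt-Co3 thus differed between days and between libraries of a group.

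With the reads of both added, the mt-Co3 sequence moved with the other members. The summed value was 22530 ± 3270 in WT and 21920 ± 9710 in KO at day 0, 5919 ± 1330 and 11370 ± 2530 at day 1, and 45780 ± 6780 and 98960 ± 8510 at day 4. The genotype difference became 0.94 at day 1 in place of 0.50 ± 0.38, and 1.12 at day 4 in place of 1.37 ± 0.38. From day 1 to day 4 the sum rose by 2.97 in WT, in place of 1.71 ± 0.38. Gm28437 itself passed the test as higher in KO at day 1 (1.04 ± 0.20, limma, adjusted p = 0.00104) and day 4 (1.10 ± 0.20, adjusted p = 0.00372), and its day 4 call was lost under quantile normalization (-0.17).

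**Figure D3:**
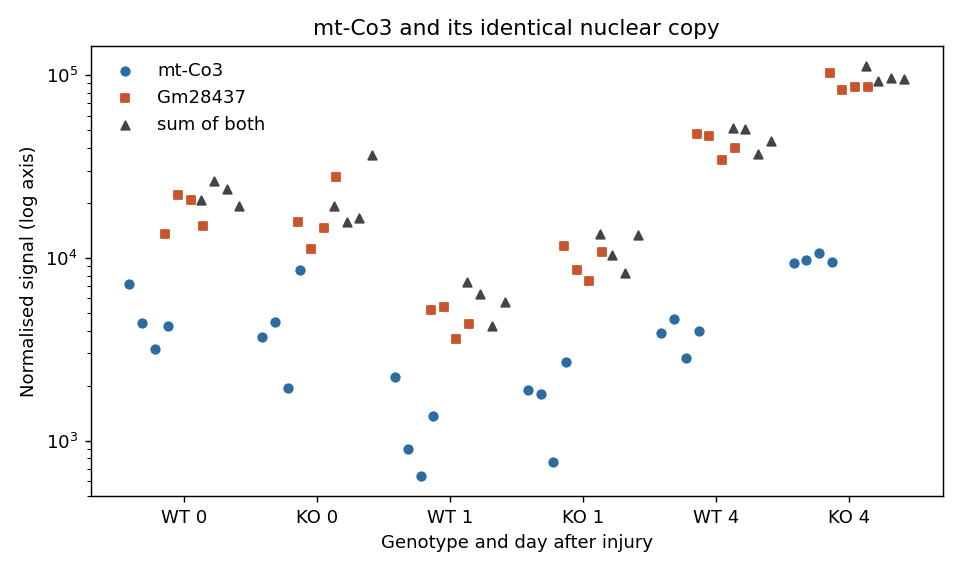
Normalised signal (log axis) of mt-Co3 (blue circles), of its identical nuclear copy Gm28437 (red squares) and of their sum (grey triangles) in 24 libraries, by genotype and day. mt-Co3 lies below Gm28437 in every library and by more at day 4, where it held 8.34% of the sum in WT and 9.94% in KO.

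The other copies took fewer of their reads. Gm29216 (ENSMUSG00000101249) left mt-Co1 with 65.5 and 67.2% of their sum in WT and KO at day 0, 76.2 and 72.3% at day 1, and 78.0 and 73.6% at day 4. It was higher in KO at day 1 (1.49 ± 0.19, limma, adjusted p = 8.93e-06) and at day 4 (1.60 ± 0.19, adjusted p = 1.8e-05). Gm28661 was near 0 up to day 1 in all libraries but WT day 0 replicate 3 (64.32) and KO day 1 replicate 1 (30.13), and ranged from 938.1 to 2188 in WT and from 553.4 to 2263 in KO at day 4. Gm28438 had counts only in the 4 WT libraries of day 4, with a lowest value of 42.71, and a count of 0 in the other 20, against values of mt-Nd3 of 1103 to 1356 in the same 4 libraries.

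mt-Atp6 (ENSMUSG00000064357), which forms part of the proton channel of ATP synthase, had the deepest fall of the 10 in WT at day 1. Its values were 17509, 22202, 19621 and 17901 in WT and 19337, 16462, 15916 and 31206 in KO at day 0, 5692, 4808, 3727 and 4536 and 13569, 10056, 8697 and 13627 at day 1, and 38140, 40425, 33687 and 38719 and 97568, 79148, 86177 and 77805 at day 4. The libraries of each day were apart from those of the other days within each genotype. By day 1 mt-Atp6 was 4.14-fold lower in WT and 1.77-fold lower in KO, and under quantile normalization the change in KO turned to 0.53 on the log2 scale. It was 2.43-fold higher in KO than in WT at day 1 and 2.25-fold higher at day 4, where quantile normalization left 0.03. Its gene overlaps those of mt-Atp8 and mt-Co3 on the same strand, so part of its reads could belong to either.

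mt-Rnr2 (ENSMUSG00000064339), the 16S RNA of the mitochondrial ribosome, had the steepest rise to day 4. Its values were 15274, 15309, 11027 and 8775 in WT and 15175, 11735, 10861 and 23207 in KO at day 0, 4439, 3401, 2194 and 3039 and 7505, 5948, 4314 and 8076 at day 1, and 58684, 58559, 48460 and 45510 and 146464, 100356, 98351 and 94489 at day 4. From day 1 to day 4 it was 16.6-fold higher in WT and 17.2-fold higher in KO. At day 4, KO replicate 1 stood apart, and the other 3 KO libraries were still above all WT libraries. Left out of the sum of members, mt-Rnr2 changed its share from 27.5 to 21.05% in WT and from 40.9 to 31.8% in KO at day 4.

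Per base of transcript, the order of the 10 genes depended on where the reads of the copies were put. Values per kb of GENCODE M21 transcript, with the copies left out, put mt-Atp6 highest and mt-Co2 next in all 6 groups, with mt-Atp6 apart from mt-Co2 in every group. mt-Nd5 was lowest in 5 groups, and mt-Co3 in WT at day 4. With the reads of the copies added, mt-Co3 was highest in WT at all 3 days and in KO at day 4, mt-Atp6 in KO at days 0 and 1, and mt-Nd5 lowest in all 6 groups. The mt-Co3 sequence then had 28740 ± 4170 per kb in WT at day 0 and 58380 ± 8650 at day 4, against 28350 ± 3140 and 55420 ± 4220 for mt-Atp6, and the ranges of the 2 genes overlapped in every group. Without the copies, the level per kb in WT at day 0 ran from 28350 ± 3140 for mt-Atp6, over 13850 ± 2420 for mt-Co2, 9326 ± 2170 for mt-Cytb and 7962 ± 2050 for mt-Rnr2, to 1990 ± 391 for mt-Nd4 and 921.9 ± 193 for mt-Nd5. The ranges of mt-Co2, mt-Cytb, mt-Rnr2, mt-Co3, mt-Nd1 and mt-Co1 overlapped from each to the next, and mt-Nd5 was apart from mt-Nd4.

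The middle of the order changed with the day. mt-Nd1 stood above mt-Cytb in WT at day 1 (3225 ± 600 against 2774 ± 571 per kb, in 4 of 4 libraries though the ranges overlapped), and below it in all other groups. mt-Rnr2 and mt-Co1 stood above mt-Cytb in both genotypes at day 4, at 33380 ± 4310, 25880 ± 2660 and 20900 ± 2510 per kb in WT. The ratio of the highest to the lowest level per kb was 30.8 in WT and 41.1 in KO at day 0, 14.4 and 16.2 at day 1, and 11.4 and 11.5 at day 4, so that the levels lay closer together after injury. With the copies added these ratios were 31.2 and 41.1, 15.8 and 16.2, and 11.3 and 11.6.

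As a share of the sum of the 10 (reads assigned to the copies left out), which does not depend on the scaling between libraries, the composition shifted with the day and mostly in the same way in both genotypes. mt-Nd1 made up 5.71 to 6.87% in WT and 5.42 to 5.73% in KO at day 0, 11.8 to 12.9% and 10.6 to 11.04% at day 1, and 7.75 to 8.27% and 6.996 to 7.805% at day 4. mt-Atp6 made up 24.6 to 26.9% and 25.4 to 27% at day 0, 18.2 to 20.7% and 21.3 to 23.1% at day 1, and 16.1 to 17.7% and 16.7 to 18.1% at day 4. mt-Co1 made up 8.30 to 10.8% and 9.43 to 11.4% at day 0, 14.2 to 15.8% and 15.7 to 16.3% at day 1, and 17.3 to 18.1% and 18.6 to 20.2% at day 4. At day 1 the mt-Nd1 share was lower and the mt-Atp6 share higher in every KO than in every WT library.

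mt-Nd5 also took a larger part after injury, from 1.80 to 2.35% in WT and 1.61 to 1.78% in KO at day 0 to 3.90 to 4.50% and 3.95 to 4.10% at day 4. mt-Rnr2 made up 13.2 to 21.4% and 18.4 to 20.6% at day 0, 12.2 to 14.2% and 11.5 to 12.8% at day 1, and 20.8 to 24.8% and 20.7 to 25.1% at day 4. mt-Co2 stayed between 10.4 and 13.55% over all 24 libraries.

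**Figure D4:**
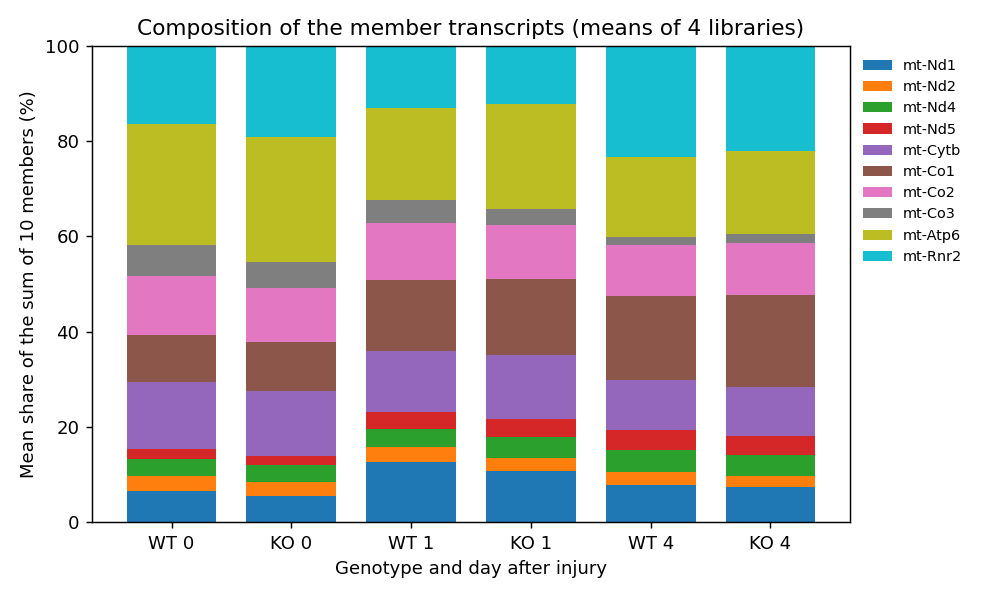
Mean share (%) of each of the 10 genes in their sum, by genotype and day (n = 4 libraries per bar). The part of mt-Nd1 is largest at day 1, that of mt-Atp6 falls from day 0 to day 4, and those of mt-Co1 and mt-Rnr2 are largest at day 4.

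The 5 other mitochondrially encoded genes in the table, which were not among the 10, could be tested. They are mt-Rnr1, the small ribosomal RNA, mt-Nd3, mt-Nd4l and mt-Nd6 of complex I, and mt-Atp8 of ATP synthase; they share precursors with the 10 and come from the same libraries, so they are not independent of them. In WT at day 1 all 5 fell (median -1.92), led by mt-Rnr1 (-2.98 ± 0.30, limma, adjusted p = 1.37e-08) and mt-Nd3 (-2.22 ± 0.22, adjusted p = 1.43e-08). Of all genes tested, 24.9% fell in WT and 21.5% in KO at that day. In KO 3 of 5 fell: mt-Rnr1 (-2.18 ± 0.30, adjusted p = 2.31e-06), mt-Nd3 (-2.11 ± 0.22, adjusted p = 4.21e-08) and mt-Atp8 (-0.73 ± 0.16, adjusted p = 0.00046), while mt-Nd4l (-0.19 ± 0.18, adjusted p = 0.432) and mt-Nd6 (-0.09 ± 0.22, adjusted p = 0.784) did not pass. All 5 rose from day 1 to day 4 in both genotypes, with medians of 3.25 and 3.09, where 27.8% and 26.2% of all genes tested rose.

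Between genotypes, 0 of 5 passed at day 0 by limma (1 of 5 at an unadjusted p under 0.05), and 0 of 5 by edgeR or DESeq2. By limma, 4 of 5 were higher in KO at day 1 and 3 of 5 at day 4. Of all genes tested, 9.75% passed at day 0, and 7.12% and 0.53% were higher in KO at days 1 and 4. mt-Atp8 was higher at day 1 (1.24 ± 0.16, limma, adjusted p = 5.65e-06) and day 4 (1.2 ± 0.16, adjusted p = 4.82e-05). mt-Nd6, the only protein gene on the other strand, was higher at day 1 (1.13 ± 0.22, adjusted p = 0.00112) and day 4 (1.04 ± 0.22, adjusted p = 0.016). Without strand information, reads over mt-Nd6 could also come from RNA of the opposite strand. The day 4 call of mt-Nd6 was lost without WT replicate 1 (adjusted p = 0.0537), WT replicate 4 (0.0507) or KO replicate 1 (0.0731), and that of mt-Rnr1 at day 1 (1.10 ± 0.30, adjusted p = 0.0188) without WT replicate 3 (0.106), KO replicate 1 (0.0776) or KO replicate 4 (0.0859). mt-Rnr1 differed by 1.18 ± 0.30 at day 4 (limma, adjusted p = 0.0561) and passed by DESeq2 (0.00945) and with only the groups compared (0.0466), so that 4 of 5 passed at day 4 by DESeq2. As CPM, 3 of 5 were higher at day 1 and 1 of 5 at day 4, and under quantile normalization 3 and 0 of 5.

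mt-Nd3 differed from the rest in its genotype values. It had 292.7, 219.3, 167.7 and 230.1 in WT and 317.1, 224.5, 165.6 and 331.0 in KO at day 1, with overlap (difference 0.16 ± 0.22, limma, adjusted p = 0.854), and 1356, 1324, 1103 and 1143 against 2136, 1573, 1833 and 1707 at day 4, without overlap (0.55 ± 0.22, adjusted p = 0.395). Set against the sum of the 10 in the same library, it stood at 1.23 to 1.53% in WT and 1.31 to 1.59% in KO at day 0, 0.863 to 0.951% and 0.440 to 0.524% at day 1, and 0.522 to 0.573% and 0.340 to 0.386% at day 4. By that ratio KO libraries were below all WT libraries at days 1 and 4 and overlapped them at day 0. With the reads of Gm28438 added, mt-Nd3 in WT at day 4 was 1310 ± 120 in place of 1231 ± 127. mt-Nd3 was singled out after its values were seen.

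The values of the 2 ribosomal RNAs, which are made together from the same precursor, changed unequally. The part of their capture by the library kit was not tested. The ratio of mt-Rnr1 to mt-Rnr2 was 0.514 ± 0.016 in WT and 0.533 ± 0.0106 in KO at day 0, 0.254 ± 0.0397 and 0.275 ± 0.036 at day 1, and 0.222 ± 0.024 and 0.245 ± 0.0247 at day 4. Every uninjured library (0.494 to 0.545) was above every injured one (0.195 to 0.308), and the genotypes overlapped at each day.

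The nuclear-encoded subunits of the same complexes did not move with the mitochondrial ones over time. Here and below, counts of genes in a list that rose, fell, were higher or were lower are of those that passed the test. Of 29 partner subunits, 23 rose and 0 fell in WT at day 1 (median 1.60, limma) and 26 rose in KO (1.46), at the day when the mitochondrial RNAs were lower in WT; 27.7% and 24.2% of all genes tested rose. From day 1 to day 4, 24 of 29 fell in WT (-0.98) and 29 of 29 in KO (-1.52), where 22.6% and 23.4% of all genes fell, while the mitochondrial RNAs were higher. These counts depended on the scaling: under quantile normalization 10 fell and 6 rose in WT and 14 fell and 3 rose in KO, and as CPM without mitochondrial genes and copies 11 fell and 5 rose in WT and 20 fell and 1 rose in KO.

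Cyc1, the cytochrome c1 of complex III beside mt-Cytb, rose by 3.22 ± 0.16 in WT (58.38 to 546.3, limma, adjusted p = 1.13e-13) and 3.26 ± 0.16 in KO (adjusted p = 1.45e-13) by day 1. It fell by day 4 by -2.18 ± 0.16 (adjusted p = 9.77e-11) and -2.98 ± 0.16 (adjusted p = 2.1e-13). Atp5b, the catalytic beta subunit of ATP synthase, rose by 1.61 ± 0.11 (adjusted p = 1.95e-11) and 2.03 ± 0.11 (adjusted p = 6.15e-13) and then fell by -2.02 ± 0.11 (adjusted p = 3.55e-13) and -3.00 ± 0.11 (adjusted p = 3.19e-16). Cyc1 and Atp5b therefore peaked at day 1, when mt-Cytb and mt-Atp6 had their lowest values.

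Between genotypes, the partner subunits were on the same side as the mitochondrial RNAs at day 1 and on the other side at day 4. In KO, 9 of 29 were higher at day 0 (median 0.28; 4.82% of all genes tested were higher) and 8 of 29 at day 1 (0.30; 7.12%), and 4 of 29 were lower at day 4 (-0.37; 0.524%) with 0 higher. As CPM, 3 were higher at day 1 (median 0.00) and 26 lower at day 4 (-0.92), and under quantile normalization 2 and 7. Cox6a1, a subunit of complex IV, was higher in KO at day 1 (0.92 ± 0.13, limma, adjusted p = 1.78e-05), and Atp5b was lower at day 4 (-0.68 ± 0.11, adjusted p = 0.000905, and 0.0605 without the mean-variance trend). The change of the genotype difference from day 1 to day 4 passed the test as negative for 9 of 29 (3.21% of all genes), with Cox6a1 at -1.44 ± 0.18 (limma, adjusted p = 1.76e-05). Most of the others had negative estimates that did not pass.

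**Figure D5:**
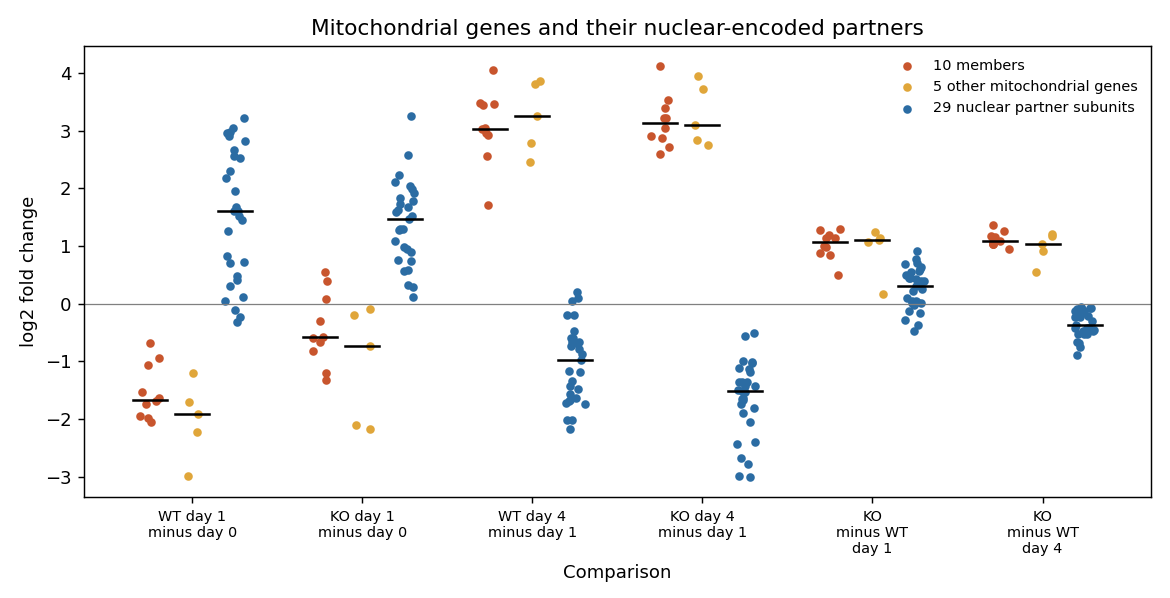
Log2 fold changes of the 10 genes (red), the 5 other mitochondrially encoded genes (yellow) and 29 nuclear-encoded partner subunits (blue) in 6 comparisons; each point is a gene and each line a median. The medians of the 10 and of the partners lie on opposite sides of 0 in the 4 comparisons over time and between genotypes at day 4 (1.08 and -0.37), and on the same side between genotypes at day 1 (1.06 and 0.30).

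Genes that make, process and translate mitochondrial RNA mostly moved in the direction of the partner subunits in WT. Of all genes tested, 27.7% rose and 24.9% fell at day 1, and 27.8% rose and 22.6% fell from day 1 to day 4. Of 10 genes of mitochondrial transcription, 5 rose and 0 fell at day 1 (median 1.22), and 5 fell and 1 rose from day 1 to day 4 (-0.83). Of 30 genes of mitochondrial RNA processing, stability and decay, 21 rose and 1 fell (1.73), then 16 fell and 2 rose (-1.26). Of 17 mitochondrial translation factors tested, 13 rose and 0 fell (2.51), then 9 fell and 1 rose (-1.36), and of 15 genes of mitochondrial DNA replication 9 rose and 3 fell (2.13), then 5 fell and 1 rose (-0.80). The signs of these medians held in WT under the scalings tried.

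In KO, 22 of 30 processing genes (median 1.49) and 11 of 17 translation factors (1.64) rose at day 1, where 24.2% of all genes tested did, and 11 and 7 of them fell from day 1 to day 4 (-0.83 and -0.96), where 23.4% of all genes did. Transcription genes in KO were split from day 1 to day 4, with 3 of 10 higher and 4 lower (median 0.75; 26.2 and 23.4% of all genes). As CPM without mitochondrial genes and copies, 8 processing genes rose and 6 fell from day 1 to day 4 in KO. The regulators of mitochondrial biogenesis showed no shared direction: of 13, 1 rose and 3 fell in WT at day 1 (-0.13), and 3 rose and 3 fell from day 1 to day 4 (0.02), the latter near the shares over all genes. Both medians changed sign with the scaling. Of 15 mitophagy genes, 9 rose and 3 fell in WT at day 1 (1.2), then 6 fell and 1 rose (-0.44, which turned to 0.26 as CPM without mitochondrial genes and copies).

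Among the named genes, Tfam, which packs mitochondrial DNA and starts its transcription, rose by 1.32 ± 0.22 at day 1 in WT (25.79 to 63.7, limma, adjusted p = 2.25e-05) and fell by -1.09 ± 0.22 by day 4 (adjusted p = 0.000265). Mrpl12, a ribosomal protein that also binds POLRMT, rose by 2.63 ± 0.20 (adjusted p = 1.72e-10) and fell by -2.12 ± 0.20 (adjusted p = 7.71e-09). Polrmt was low and uneven, at 0.1032, 0.03649, 20.36 and 10.14 in the WT libraries of day 0, so its change at day 1 (1.08 ± 0.68, adjusted p = 0.195; 0.0125 without WT day 0 replicate 3) rests on few counts. As CPM without mitochondrial genes and copies, the fall of Tfam was -0.39 (adjusted p = 0.135). Tfam and Mrpl12 were thus highest in WT at day 1 in the deposited values, the day at which the mitochondrial RNAs were lowest.

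Lrpprc and Slirp, which together protect mitochondrial mRNAs, rose at day 1 in WT by 1.91 ± 0.26 (limma, adjusted p = 1.32e-06) and 1.34 ± 0.25 (adjusted p = 6.84e-05). Slirp fell by -1.56 ± 0.25 by day 4 (adjusted p = 1.27e-05), and Lrpprc changed by -0.66 ± 0.26 (adjusted p = 0.0381), a call that was lost without WT replicate 2, 3 or 4 of day 1 or replicate 1, 2 or 4 of day 4 (adjusted p = 0.0574 to 0.123) and a value that turned to 0.05 as CPM without mitochondrial genes and copies. Pnpt1, a subunit of the exonuclease that degrades mitochondrial RNA, stood at 0.6535, 0.2555, 0.2694 and 41.18 in WT at day 0 and at 83.9, 99.72, 114.6 and 105.4 at day 1 (4.96 ± 0.69, adjusted p = 1.86e-06). Hsd17b10, a subunit of the enzyme that cuts the precursors at tRNA 5′ ends, rose by 0.84 ± 0.17 (adjusted p = 0.000209) and fell by -2.07 ± 0.17 (adjusted p = 5.12e-10). None of these 4 passed the test between genotypes at day 4 (limma, adjusted p = 0.862, 0.957, 0.977 and 0.0503). Hsd17b10 did pass as CPM (-1.21, adjusted p = 6.05e-05), under quantile normalization (0.0112), by DESeq2 (0.0129) and without KO day 4 replicate 2 (0.0151). Tufm, the elongation factor of mitochondrial translation, was lower in KO at day 4 (32.25 against 65.5, -1.03 ± 0.20, adjusted p = 0.00507). Trmt10c, a gene of the processing list, was also lower in KO at day 4 (15.74 against 29.46, -0.99 ± 0.25, limma, adjusted p = 0.0494).

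RNAs known to stay in the nucleus moved the way the mitochondrial RNAs did at day 1 and recovered in part. Of 8 nuclear-retained noncoding RNAs, 7 fell and 0 rose at day 1 in each genotype (medians -3.85 and -2.84), where 24.9% and 21.5% of all genes tested fell. From day 1 to day 4, 6 rose and 1 fell in WT (1.33) and 6 rose and 0 fell in KO (1.38), where 27.8% and 26.2% of all genes rose. Neat1, the scaffold of paraspeckles, fell from 4521 to 188.3 in WT by day 1 (-4.58 ± 0.11, limma, adjusted p = 1.8e-19) and rose to 2447 by day 4 (3.70 ± 0.11, adjusted p = 2.8e-17). It was higher in KO than in WT at day 1 (1.30 ± 0.11, adjusted p = 1.23e-08), and at day 4 the difference was 0.29 ± 0.11 (adjusted p = 0.338). Malat1, the highest of the 8 by mean value, was higher in KO at day 4 (23460 against 14690, 0.68 ± 0.13, limma, adjusted p = 0.00666). Xist and Snhg11 had lower point estimates in KO at day 4 (-0.94 ± 0.57 and -0.96 ± 0.48) and did not pass. The sum of the 8 was higher in every KO than in every WT library at day 1 (9386 to 11460 against 4913 to 7531) and day 4 (24610 to 29210 against 16880 to 19700). Unlike the mitochondrial RNAs, the list stayed below its uninjured level at day 4, with 6 of 8 lower than at day 0 in each genotype, where 18.9% and 18.2% of all genes tested were. The part of RNA quality or of the ratio of cytoplasm to nucleus in the mitochondrial values was not tested.

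The nuclear-encoded genes whose pattern over the 24 libraries was most like the mean of the 10 were Zmiz1, Rab12, Ldb1, Ccdc152 and Gclc, with Pearson correlations of 0.94, 0.939, 0.936, 0.923 and 0.922. The 24 libraries share 6 groups, so these values mostly describe the order of the groups.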

How the data were processed

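Bulk RNA sequencing of muscle stem cells gave 24 libraries, which per the labels' protocols used the SMART-Seq v4 kit. FastQC, STAR, RSEM and limma, with mm39 as the build, appear, without versions, in the submitters' processing notes; strand use is not given in the sources used here. The deposited table, in which the values are a linear normalised signal made by the authors, covers 17111 genes. Each deposited value is a whole count plus 0.5 times a factor of its library: dividing by that factor gave whole numbers, to a tolerance of 0.02, for 100% of the table. Recovered counts, not the deposited values, entered edgeR and DESeq2. A count of 3 corresponds to a value of 0.145 to 0.32; such floors cover counting error only.

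limma 3.58.1 in R 4.3.3 was fitted, with a mean-variance trend, to log2(value + 1) of the 16985 genes that reached a value of 1 in 4 or more libraries, over all 24 libraries and 6 groups. From it came 11 two-sided contrasts, adjusted by Benjamini-Hochberg within each, with a threshold of 0.05. No 2 libraries of a group agreed within sampling noise. The fit was tested on simulated counts. Lengths and copies came from GENCODE M21 transcripts, aligned base by base.

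The 10 genes, the gene lists and the comparisons were chosen with earlier results of these data known. Named are the 10 genes, the other mitochondrially encoded genes and their copies in the table, Lamp2, Polrmt, Tfam, Lrpprc, Slirp and Pnpt1, a part of the up to 3 genes per nuclear list and contrast with the largest changes that passed (mean value of at least 8), and the 5 genes most alike. Other list genes and markers are named where members of a list moved in different ways. Alternatives were other filters (none, or at least 5 in at least 8 libraries), pseudocounts of 0.5 and 5, quantile normalization, values rescaled to an equal library total (CPM), no trend, fits limited to the compared groups, a block for the replicate number, edgeR 4.0.16, DESeq2 1.42.0 and leaving out each library. Adding the reads of copies, and CPM without mitochondrial genes and copies, were chosen after seeing the data.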

Additional observations from a re-analysis of the deposited data

Results flagged for a closer look

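Of 186 sets of 4 libraries tested over the named genes and more, about 1 in 20 would be flagged by chance for a library far from the other 3. KO replicate 4 of day 0 stood above the other 3 libraries of its group for mt-Nd4 (4529 against 2236 to 2531), mt-Nd5 (2060 against 1052 to 1187), mt-Cytb (16617 against 8496 to 9772) and mt-Nd4l (401.8 against 211.4 to 236.5). KO replicate 1 of day 4 stood above its group for mt-Nd5 (23094), mt-Co1 (108855), mt-Co2 (63859), mt-Rnr2 (146464), Gm28437 (102170) and Tufm (44.57 against 27.48 to 29.38), and for the share of the column total held by the 10 genes (43.48% against 39.99 to 40.06%). KO replicate 4 of day 0 and KO replicate 1 of day 4 also had the highest column totals of their groups (1058197 against 932367 to 1001265, and 1344542 against 1128111 to 1186506), and their part in these values was not tested.

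Single genes also had a library far from its group: Gm28661 in WT replicate 3 of day 0 (64.32) and KO replicate 1 of day 1 (30.13), Pnpt1 in WT replicate 4 of day 0 (41.18), Tfam in KO replicate 3 at day 1 (50.61, the lowest) and at day 4 (33.7, the highest), Cyc1 in WT replicate 4 of day 4 (134.6) and Atp5b in WT replicate 4 of day 1 (2828, the lowest).

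The change from day 0 to day 1 differed between genotypes (KO minus WT, log2 scale, limma interaction past the threshold over all genes). For members, whose choice used these values, the difference is a description: 1.08 for mt-Nd1, 0.97 for mt-Nd2, 1.24 for mt-Nd4, 1.48 for mt-Nd5, 1.14 for mt-Cytb, 1.15 for mt-Co1, 1.12 for mt-Co2 and 1.23 for mt-Atp6. For other genes it was 1.02 for mt-Nd4l (adjusted p = 0.00994), 1.62 for mt-Nd6 (adjusted p = 0.00113), 1.19 for mt-Atp8 (adjusted p = 0.000772), 1.14 for Gm28437 (adjusted p = 0.0102), 1.56 for Gm29216 (adjusted p = 0.000455), 0.92 for Mrpl12, 1.06 for Cox6a1 (adjusted p = 0.00029), 1.99 for Neat1 (adjusted p = 6.42e-09) and -3.24 for Pnpt1 (adjusted p = 0.0311), whose WT libraries of day 0 held few counts in 3 of 4. The change from day 1 to day 4 differed by -0.80 for Cyc1 (adjusted p = 0.0463), -0.98 for Atp5b (adjusted p = 0.000327), -1.44 for Cox6a1 (adjusted p = 1.76e-05), -1.06 for Tufm (adjusted p = 0.0268), -1.29 for Hsd17b10 (adjusted p = 0.00165) and -1.01 for Neat1 (adjusted p = 0.000291).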

How the results depend on the processing

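No median of the 10 genes beyond 0.1 changed sign under the other scalings and tools, and the one nearest to 0 was 0.01, between genotypes at day 4 under quantile normalization. The median of -0.06 between genotypes at day 0 varied from -0.06 to 0.09, and that of 0.06 for the change of the genotype difference from day 1 to day 4 fell to -0.77 under quantile normalization and -0.19 as CPM. Limits: every one of the 10 genes had at least 12142 counts in each library, which bounds counting error only; the 4 libraries per group and the unstated origin of the replicates limit the tests, and low genes such as Polrmt and Pnpt1 rest on few counts in uninjured libraries. The cause of these moves was not tested.

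The count of genes called between genotypes moved as follows. At day 0 it was 1656, and 68 with only the groups compared and 2536 by DESeq2. At day 1 it was 1562, and 996 under quantile normalization and 3958 with only the groups compared. At day 4 it was 179, and 101 under the stricter filter, 1865 as CPM, 362 as CPM of genes not mitochondrially encoded and 85 by edgeR. The change of the genotype difference from day 1 to day 4 was called for 675 genes, and for 1254 as CPM and 1523 with only the groups compared. As CPM, the split of higher against lower calls moved from 819 and 837 to 1027 and 608 at day 0, from 1209 and 353 to 588 and 631 at day 1, and from 90 and 89 to 60 and 1805 at day 4.

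The median of the 10 genes moved with the scaling. Under quantile normalization it was 2.29 and 1.92 from day 1 to day 4 in WT and KO, 1.28 and 1.15 from day 0 to day 4, and 0.66 and -0.77 for the changes of the genotype difference from day 0 to day 1 and from day 1 to day 4; that method gives the highest ranks of all libraries the same values. As CPM it was 0.53 between genotypes at day 4, 1.98 in WT from day 0 to day 4, and 0.72 for the change of the genotype difference from day 0 to day 1. As CPM of genes not mitochondrially encoded it was 3.62 and 3.77 from day 1 to day 4, 2.37 and 3.19 from day 0 to day 4, and 0.73 for that change. Without nuclear copies as well, it was 3.75 and 4.05, 2.48 and 3.45, and 0.74. The share of the column total was 5.97% without mt-Rnr2 and 9.20% with the copies in WT at day 0, 3.42 and 5.93% with the copies in WT and KO at day 1, 21.05% without mt-Rnr2 and 34.1% with the copies in WT at day 4, and 31.8 and 51.2% in KO.

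Values that changed sign and were called in the deposited scaling or in the alternative were the following. Under quantile normalization, the genotype difference at day 4 was -0.03 for mt-Nd1, -0.06 for mt-Nd4, -0.05 for mt-Cytb and -0.17 for Gm28437. In KO, the change from day 0 to day 1 became 0.53 for mt-Atp6 and 0.08 for Gm28437, that from day 1 to day 4 became -0.68 for mt-Atp6 and 0.46 for Lamp2, and that from day 0 to day 4 became -0.15 for mt-Atp6 and for mt-Rnr1, 0.20 for Atp5b and 0.51 for Cox6a1. In WT, Lamp2 became 0.01 from day 1 to day 4, and Atp5b 0.79 and Cox6a1 1.11 from day 0 to day 4. The change of the genotype difference from day 1 to day 4 became -1.0 for Gm29216, which was not called in the deposited scaling (0.11). As CPM, Cox6a1 became 0.36 in WT from day 0 to day 4, where it was not called in the deposited scaling; nor were Slirp there, Lrpprc in KO from day 1 to day 4 and Tufm in KO from day 0 to day 4, given below. As CPM of genes not mitochondrially encoded, Atp5b became 0.35 and Cox6a1 0.75 there, and Cox6a1 0.02 in KO. Without the copies as well, Lrpprc became 0.05 in WT and 0.79 in KO and Lamp2 0.09 in KO from day 1 to day 4, and from day 0 to day 4 Slirp became 0.64, Atp5b 0.47 and Cox6a1 0.86 in WT, and Cox6a1 0.29 and Tufm 0.51 in KO.

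Leaving out 1 library gave 1561 to 1794 called genes between genotypes at day 0, 1125 to 1337 at day 1 and 117 to 204 at day 4, the lowest of these without WT replicate 1. It gave 8194 to 8753, 7670 to 7831 and 6720 to 7406 in WT over days 0 to 1, 1 to 4 and 0 to 4, 6950 to 7570, 7602 to 8019 and 6259 to 6646 in KO, and 1556 to 2134 and 503 to 654 for the changes of the genotype difference. The medians of the 10 genes ran from -0.30 (without KO replicate 4) to 0.10 at day 0, 0.93 to 1.2 at day 1 and 1.03 to 1.12 at day 4. They ran from -1.78 to -1.53, 2.91 to 3.13 and 1.53 to 1.69 in WT, from -0.71 to -0.35 (without KO replicate 4 of day 0), 2.97 to 3.24 and 2.62 to 3.0 in KO, and from 0.99 to 1.35 and -0.10 to 0.22 for the changes of the genotype difference.

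The replicate numbers do not pair the libraries: of 60 pairs of libraries with the same number, 1 had a correlation of deviations over 0.1. With the replicate number as a block, 175 genes were called between genotypes at day 4, 1537 at day 1 and 1637 at day 0. Of 352 values, 350 kept their side of the threshold or moved by less than the spread, mt-Rnr1 between genotypes at day 4 came to an adjusted p of 0.00837 and Pnpt1 in KO from day 0 to day 1 to 0.052 (limma).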
